A study of Ovis aries with 36 samples.

Results

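The HOXC cluster region of the sheep genome was examined on chromosome 3 of the Oar_v3.1 build, in a window of 160 kb around HOXC10. Every locus whose span lay wholly inside the window was taken, whatever its level and with or without an Ensembl gene, which gave 18 of the 31136 loci counted. They are numbered here 1 to 18 from the lowest to the highest coordinate, and HOXC10 (ENSOARG00000016331, 132378062 to 132383225) is locus 9. Of the 18 loci, 15 carry an Ensembl gene and 3 are unannotated transcripts assembled from the reads (loci 2, 10 and 15). The measurement is RNA-Seq of 9 muscles from the same 4 unrelated male Poll Dorset cross-bred lambs, which makes 36 samples. All samples are untreated muscle taken after slaughter, from the middle of the superficial belly, of animals of 14 months and 67 to 72 kg live weight. Of the pelvis and thigh, 6 muscles were sampled, among them the Semimembranosus (SM), the Adductor (AD), the Rectus femoris (RF) and the Gluteus medius (GM). The Semitendinosus (ST) and the cranial Gluteobiceps (GB) complete these 6. The loin is represented by the Psoas major (PM) and the Longissimus lumborum (LL), and the shoulder by the Supraspinatus (SS) alone.

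HOX genes encode homeodomain transcription factors that give cells their position along the body axis. They lie in clusters, and the order of the genes in a cluster follows the order of the body levels at which they are used, so that genes of low number act from the neck and trunk and genes of high number further towards the tail. HOXC10 belongs to the posterior genes, known for lumbar and hind limb levels, and adult muscle keeps part of this positional pattern. In the RefSeq gene order of another sheep assembly, ARS-UI_Ramb_v3.0, HOXC9 and HOXC11 are the HOXC genes on either side of HOXC10, the series of 8 HOXC genes runs from HOXC5 to HOXC13, and long non-coding RNA genes lie between them. That table pairs none of its names with Ensembl identifiers, so only HOXC10, whose identity the study gives by its coordinates, is named here, and the other loci keep their numbers.

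Counts in the window were low. All 18 loci together held 17 to 124 counts per sample and 2033 in all, against totals of 3699148 to 6427422 counts per sample. In each sample 4 short loci outside the window took 65.7 to 78.3% of all counts, which left 1009232 to 2151731 for the rest of the transcriptome. A single count was worth 0.122 to 0.34 CPM (counts scaled to library size by the TMM method), and 3 counts, the limit that a count of 0 allows in 1 sample, 0.365 to 1.02 CPM. Intervals and limits given below cover counting error only. At this depth a level of 0 means that no read was counted, not that the transcript is absent. In whole muscle, fewer expressing cells and less RNA per cell cannot be told apart.

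Only loci 2 and 9 passed the filter on low counts (filterByExpr by muscle, 12461 loci) and were tested in the fit over all samples. A wider filter of at least 36 counts over the 36 samples, chosen after seeing the data, kept 19414 loci and added loci 5, 6, 7, 10, 11 and 15 of the window. The other 10 loci had 15 counts or fewer in all and are described by their counts.

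**Figure D1:**
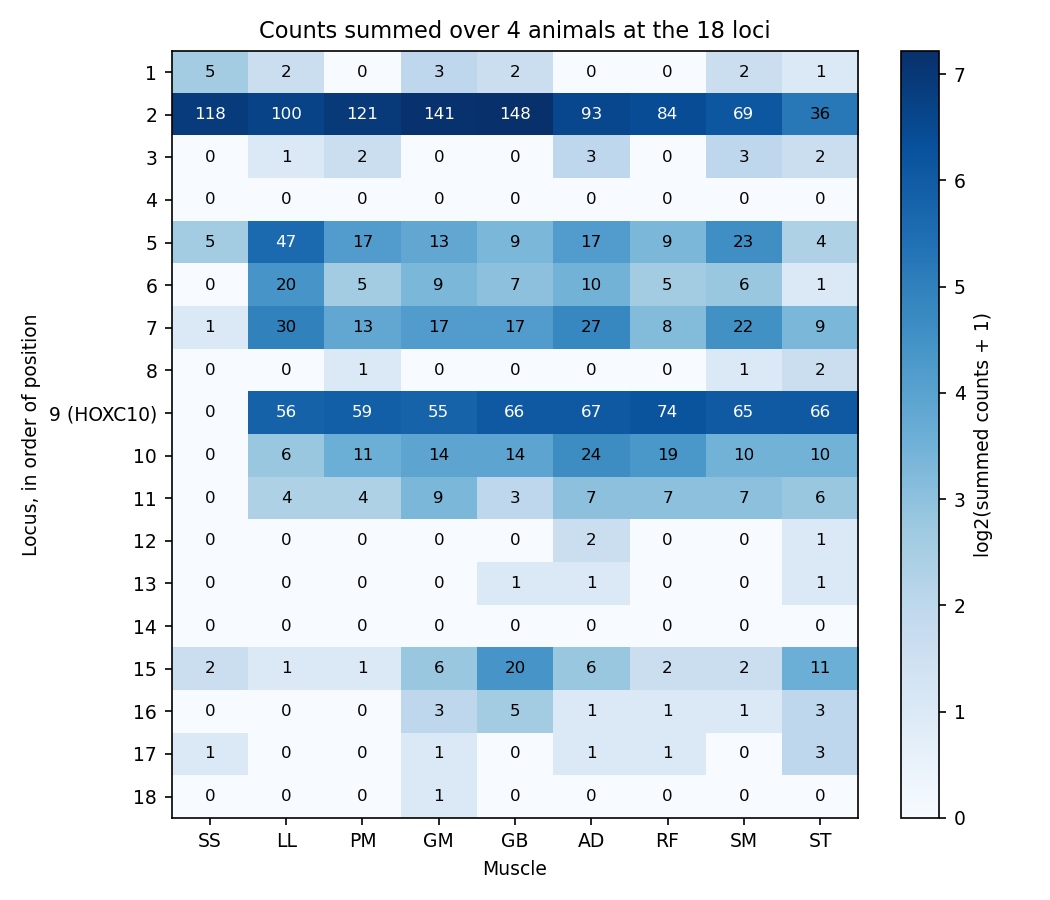
Counts summed over the 4 animals of each muscle (columns) at the 18 loci in order of position (rows); colour gives log2 of the summed count plus 1. Loci 2 and 9 hold most counts, the SS column is at 0 for HOXC10 and for loci 6, 10 and 11, and LL has the highest sums at loci 5, 6 and 7.

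HOXC10 was counted in every sample of 8 muscles and in no sample of SS. In animals 1 to 4, the counts were 13, 20, 12 and 20 in SM. ST gave 12, 20, 17 and 17 counts, and GB 11, 25, 12 and 18. All 3 muscles thus had HOXC10 in each animal, at about the same level. GM gave 8, 12, 15 and 20 counts, RF 23, 23, 9 and 19, and AD 13, 23, 18 and 13. In the loin muscles, LL gave 18, 11, 17 and 10 counts and PM 8, 21, 15 and 15. SS gave 0, 0, 0 and 0.

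The 32 samples of the other muscles ranged from 8 to 25 counts of HOXC10 and the groups did not overlap. The effective sizes of the SS libraries (total counts times the TMM factor) lay within the range of the others. They were 4372413 to 6895298, against 2937657 to 8227116 in the other muscles. At the pooled level of the other muscles, 61.4 counts of HOXC10 would have been counted in the SS libraries together. With the limit of 3 counts over the group, HOXC10 was at least 20.5-fold lower in SS. HOXC10 was taken as the centre of the window with its difference from SS already known, so these levels are a description and carry no test. Of the 12461 loci, 10 (0.0803%) were lower in each SS sample than in all 32 others.

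Among the 8 muscles that expressed it, HOXC10 did not separate one muscle from another. Mean levels ran from 3.5 ± 0.668 CPM in ST (SD, n = 4) through SM (3.4 ± 0.701), RF (3.21 ± 1.26), AD (3.03 ± 0.629), GB (2.57 ± 0.668), PM (2.57 ± 0.721) and LL (2.42 ± 0.769) to 2.09 ± 0.313 CPM in GM. Each muscle lay within the spread of its neighbours in this order. The joint test of the 8 muscles gave FDR = 0.398 for HOXC10 (quasi-likelihood test of edgeR, adjusted by Benjamini-Hochberg over all loci tested), where 6.06% of all loci passed an FDR of 0.01. None of the 28 pairs of these muscles was called for it, and 2 pairs had an unadjusted p under 0.05 in edgeR. Over the pairs, 0.587% of all tests were called, with FDR of at most 0.01 and an absolute log2 fold change (log2FC) above 1. The lowest value was FDR = 0.131, for ST over GM, with a log2FC of 0.72. Animals did not differ detectably either (FDR = 0.62, edgeR, where 17% of loci passed). A difference of the size seen between ST and GM could not be shown at these counts.

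**Figure D2:**
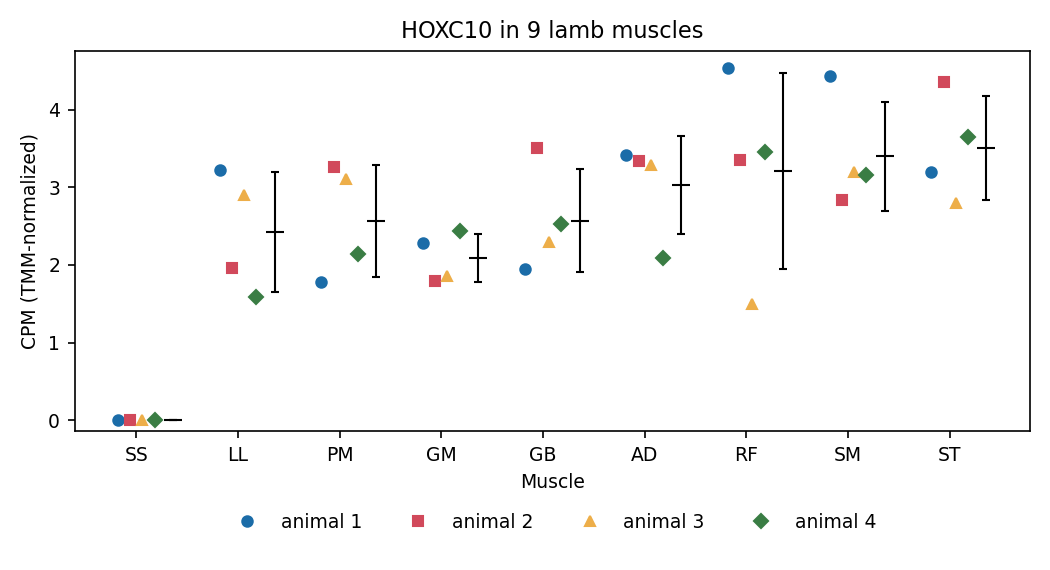
HOXC10 in CPM (y axis) in the 9 muscles (x axis); each symbol is 1 animal, and the bar beside it gives the mean ± SD of 4 animals. All 4 SS samples lie at 0, and the means of the other 8 muscles lie between 2.09 and 3.5 CPM with overlapping samples.

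HOXC10 and a slow-fibre gene were set side by side. TNNT1, the troponin T of slow fibres, averaged 224 ± 54.5 CPM in SS and 255 ± 20.8 CPM in PM. ST, with the highest HOXC10 mean, had 23.1 ± 6.93 CPM of TNNT1. PM and SS therefore had the highest means of this slow-fibre gene, and HOXC10 was counted in 4 of 4 samples of PM and 0 of 4 of SS. Whether fibre type bears on HOXC10 was not tested, and TNNT1 is a single marker. HOXD8, a gene of another HOX cluster and the only other HOX gene whose identity was given, averaged 0.603 ± 0.627 CPM in SS and 1.42 ± 1.07 CPM in RF, against 7.39 ± 4.61 (GB) to 14 ± 3.91 CPM (LL) in the others. RF was thus low for HOXD8 while its HOXC10 mean was 3.21 CPM.

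Loci next to HOXC10 were also low in SS. HOXC10 is left out of this comparison, since its difference from SS was known when the window was chosen. Of the other window loci tested under the wider filter, loci 7 and 10 were called lower in SS than in the mean of the other 8 muscles. Loci 2, 5, 6, 11 and 15 were not. Over all loci, 0.314% were called lower (1.22% in either direction). Loci 7 and 10 are the nearest tested loci on either side of HOXC10, and the wider filter was chosen after seeing the data.

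Locus 10 (unannotated, 132383480 to 132385129) starts 255 bases beyond the end of HOXC10. It gave 0, 0, 0 and 0 counts in SS. AD gave 5, 10, 6 and 3 counts, RF 7, 3, 5 and 4, and PM 2, 5, 3 and 1. LL, with 1, 0, 5 and 0 counts, overlapped with SS. So did SM (0 to 4 counts per sample) and ST (0 to 5). GB and GM gave 1 to 6 counts per sample. Together the 32 other samples had 108 counts, so that SS was at least 4.35-fold lower with the limit of 3 counts over the group. The fitted log2FC was -4.74 (FDR = 0.00551, edgeR's quasi-likelihood test), and the exact permutation test within animals gave p = 0.0076, unadjusted and two-sided, one of 8 loci tested in this way. The call was lost when any 1 of the 4 animals was left out (FDR 0.0184 to 0.106), without the animal term (0.0204) and with DESeq2 (0.0103). Because the strand setting of the counting is not given in the sources used here, reads running past the end of HOXC10 cannot be told apart from a separate transcript.

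Locus 7 (ENSOARG00000016319, 132365704 to 132368208) lies on the side of lower coordinates from HOXC10. SS gave 0, 0, 0 and 1 counts. LL gave 6, 10, 9 and 5 counts, AD 1, 10, 7 and 9, and SM 3, 7, 1 and 11. GB (4, 4, 4 and 5), GM (2, 3, 5 and 7) and PM (2, 3, 4 and 4) were above SS in each animal. ST (4, 1, 1 and 3) and RF (3, 3, 1 and 1) were the lowest of the others. The single count in SS stood against 143 in the other muscles, a pooled ratio of 17.3 (95% interval 3.05 to 688). The log2FC was -3.46 (FDR = 0.00258, edgeR; exact permutation p = 0.0062). Without animal 1, 2 or 3 the FDR rose to 0.0137, 0.0451 and 0.0292, and with DESeq2 to 0.0199. By pairs, SS was lower than LL (log2FC -4.34, FDR = 2.1e-04), AD (log2FC -4.17, FDR = 0.00137) and SM (the log2FC of SM over SS was 4.00, FDR = 0.00164, all edgeR), where 0.512% of all tests over the 36 pairs were called.

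Loci 6 and 11 had no count in SS, but their contrasts did not pass. Locus 6 (ENSOARG00000016306, 132357083 to 132359341) had 63 counts in the other muscles, of which 20 in LL, and its contrast had FDR = 0.095 (exact permutation p = 0.063). Locus 11 (ENSOARG00000016342, 132392956 to 132395153) had 47 counts spread over the 8 muscles, 3 to 9 in each, with FDR = 0.0664 (exact permutation p = 0.0078). Counts this low put SS at least 2.54-fold lower at locus 6 and 1.89-fold at locus 11. Against LL alone, locus 6 in SS was called lower (log2FC -5.43, FDR = 0.00432, edgeR).

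At locus 5, SS was below the mean of the other muscles in each animal, with differences of -0.63, -0.48, -0.73 and -1.07 log2 CPM in animals 1 to 4, and the pooled ratio of the others to SS was 3.36 (95% interval 1.41 to 10.5). Its contrast did not pass, with a log2FC of -1.35 (FDR = 0.231, edgeR with the wider filter; exact permutation p = 0.11). Loci 2 and 15 did not pass either. The log2FC was -0.78 at locus 15 (FDR = 0.802, wider filter) and 0.41 at locus 2 (FDR = 0.65, both edgeR). Locus 2 held 118 of the 132 counts that SS had in the whole window, which is 89.4%.

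Locus 5 (ENSOARG00000016296, 132338094 to 132340389) was called among the muscles other than SS, where HOXC10 was not, with the filter chosen after seeing the data. LL gave 11, 12, 6 and 18 counts, and SM 5, 7, 4 and 7. AD gave 3, 4, 3 and 7, and PM 2, 4, 6 and 5. Levels in LL exceeded those in each of ST (3, 0, 0 and 1), GB (2, 3, 0 and 4) and SS (1, 2, 1 and 1) in all 4 animals. AD, GM and RF were also below LL in all 4 animals. SM and PM exceeded LL in animal 3 alone (1.07 and 1.24 against 1.02 CPM). GM gave 0, 2, 7 and 4 counts and RF 0, 3, 3 and 3. In CPM, LL averaged 2 ± 0.754, SM 1.22 ± 0.327, AD 0.76 ± 0.266 and PM 0.755 ± 0.341, and the other 5 muscles 0.222 to 0.413. The joint test of the 8 muscles without SS called locus 5 (FDR = 0.00174, edgeR with the wider filter), the only one of the 8 loci tested, where 3.96% of all loci passed. The call was lost without animal 2 (FDR = 0.0446) or animal 4 (FDR = 0.0898). Of the pairs without SS, ST and LL differed by a log2FC of -3.12 (FDR = 0.00169) and GB and LL by -2.45 (FDR = 0.0093), 2 of 224 tests of window loci against 0.397% of all tests called. The calls among pairs without SS fell from 2 to 1 without the animal term, with DESeq2, with RLE size factors and with library sizes without the 4 short loci, and to 1, 0, 1 and 0 without animals 1, 2, 3 and 4. SS and LL differed by -3.05 (FDR = 6.8e-04, edgeR).

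**Figure D3:**
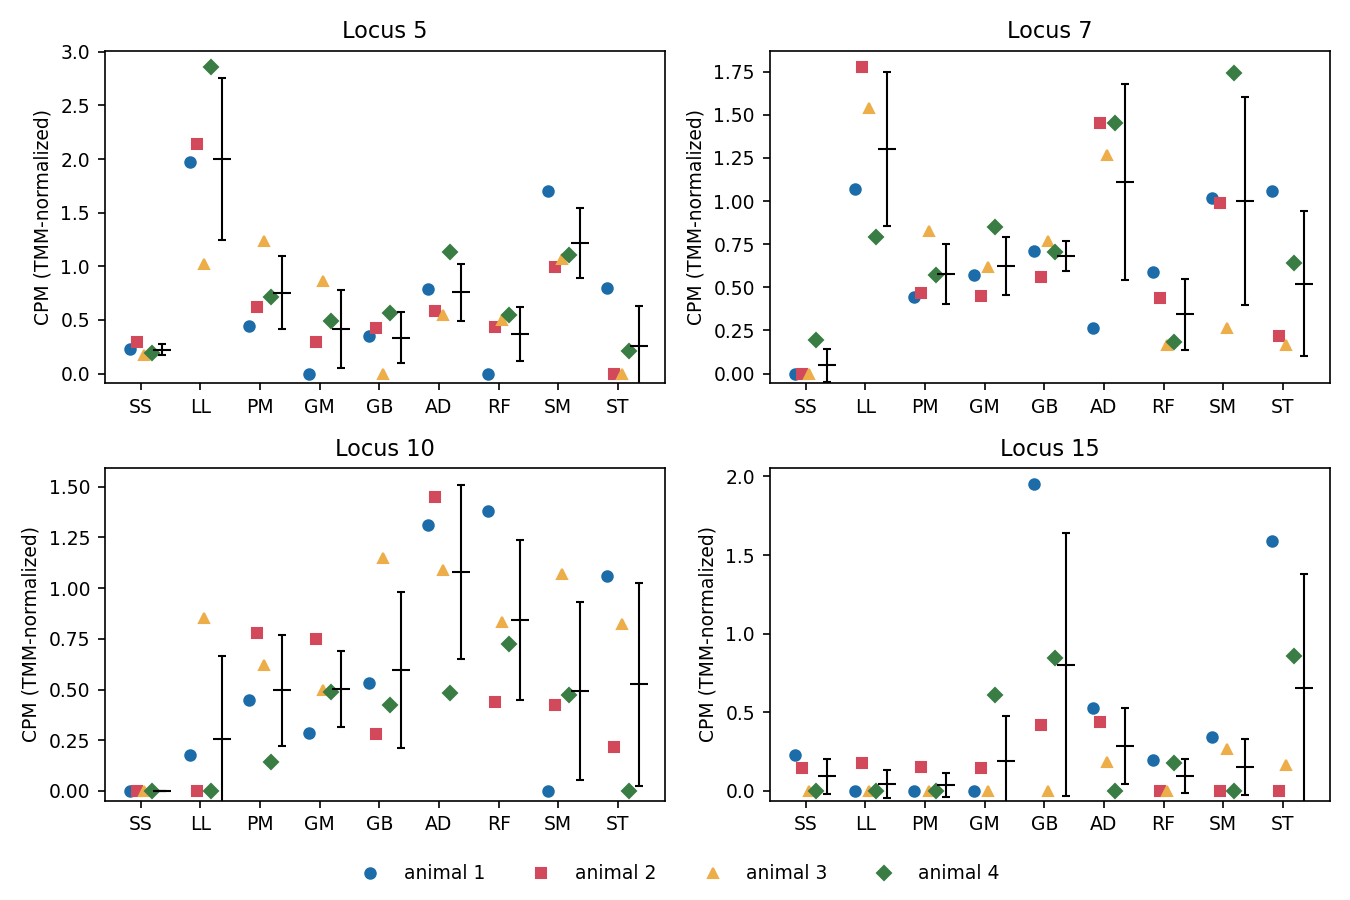
Loci 5, 7, 10 and 15 in CPM (y axes, each with its own scale) in the 9 muscles (x axes); symbols are animals and bars give the mean ± SD of 4 animals. LL is highest at loci 5 and 7, SS has 1 count at locus 7 and none at locus 10, and locus 15 has its highest means in GB and ST, each with 2 animals high and 2 low.

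The next comparison asked whether the loin muscles LL and PM differed from the 6 pelvic limb muscles, since HOX genes are known for differences along the body axis. No locus of the window passed in this contrast, with 0 of 2 tested in the fit with the stricter filter (0.233% of all loci called, 0 of the 2 with an unadjusted p under 0.05) and 0 of 8 with the wider filter (0.185% called, 2 of the 8 with an unadjusted p under 0.05, edgeR). With the wider filter, DESeq2 called 0 but gave locus 5 no adjusted p, and the likelihood ratio test called 1, locus 5 (FDR = 0.0012, edgeR). The fit with no filter, which leaves no locus its own spread, also called 1, locus 5 (FDR = 0.00348, edgeR).

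For HOXC10, the log2FC between loin and pelvic limb muscles was -0.22 (FDR = 0.595, edgeR). The mean difference within animals was -0.21 log2 CPM (SD 0.35, SE 0.17, n = 4), with loin lower in 3 of 4 animals and an exact permutation p of 0.17. The difference was smaller than the spread between animals.

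Locus 5 came nearest to a call. Loin exceeded pelvic limb muscles by 0.79, 1.06, 1.00 and 0.93 log2 CPM in animals 1 to 4, a mean of 0.95 (SD 0.12). Its log2FC of 1.33 had FDR = 0.0197 (edgeR), and the exact permutation test gave p = 0.0027, unadjusted over the 8 loci. LL carried most of it, since PM, at 0.755 CPM, lay below SM at 1.22 CPM.

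The sign of the mean loin difference varied along the window. Relative to the pelvic limb, the loin muscles were higher on average at locus 6 (0.44, SE 0.15) and locus 7 (0.30, SE 0.23) and lower at locus 10 (-0.52, SE 0.13), locus 11 (-0.32, SE 0.16) and locus 15 (-0.63, SE 0.32), all in log2 CPM within animals. None of these differences passed the FDR, and the lowest of their exact p was 0.041, for locus 6. LL, at 0.863 and 1.3 CPM, carried the positive means at loci 6 and 7. PM, at 0.191 and 0.577 CPM there, lay below the pelvic limb means of 0.259 and 0.714 CPM. Locus 2, the lowest in coordinate of the 8, was higher in loin in 2 of 4 animals (mean 0.26, SE 0.43). Of these 8 loci, the means were positive at the 4 before HOXC10 and negative at HOXC10 and the 3 beyond it. Loci 1, 3 and 8, with 15 counts or fewer, also lie before HOXC10 and had means of -0.05, -0.02 and -0.02. Spearman's rho between order of position and the mean difference was -0.83 over the 8 loci and -0.50 to -0.95 in single animals. These points share libraries and rest on few counts, and no test was made of the order.

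The summed raw counts on either side of HOXC10 were also set out by muscle, with locus 2 left out. Loci 1 and 3 to 8 together had 100 counts in LL, 57 in SM and in AD, 42 in GM, 38 in PM, 35 in GB, 22 in RF, 19 in ST and 11 in SS. Scaled to library size, the pooled levels were 4.28 CPM in LL, 2.84 in SM, 2.54 in AD, 1.67 in PM and 1.58 in GM. GB had 1.39 CPM, ST 0.996, RF 0.937 and SS 0.498. Single samples had 20 to 28 counts in LL, 6 to 21 in SM, 4 to 7 in RF and 2 to 4 in SS. Beyond HOXC10, loci 10 and 11 had 31 counts in AD, 26 in RF, 23 in GM and 17 in SM and in GB. They had 16 in ST, 15 in PM, 10 in LL and 0 in SS. Loci 12 to 18, at the far end, had 26 counts in GB, 19 in ST, 11 in GM and in AD, 4 in RF, 3 in SM and in SS, and 1 in each of LL and PM. In pooled CPM the far end had 1.04 in GB, 0.996 in ST, 0.491 in AD, 0.415 in GM and at most 0.17 in the others.

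Locus 15 (unannotated) accounted for most counts of the far end, with 51 of 79. It shares its span, 132402113 to 132404370, with locus 14 (ENSOARG00000021214), which had no count in any sample. All counts of the pair were thus assigned to locus 15. How reads were assigned between the loci is not given in the sources used here. GB gave 11, 3, 0 and 6 counts and ST 6, 0, 1 and 4. The level thus varied as much between animals of 1 muscle as between muscles. GM gave 0, 1, 0 and 5, AD 2, 3, 1 and 0, and the 5 other muscles 0 or 1 in each sample. The joint test of the 8 muscles had FDR = 0.0416, and the loin contrast a log2FC of -2.13 with FDR = 0.212 (edgeR, wider filter).

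Locus 2 (unannotated, 132331472 to 132331791) was the most counted locus of the window and varied widely between samples. This transcript spans 320 bases and had 910 counts, 2 to 79 per sample, with at least 1 count in all 36. GB gave 6, 59, 4 and 79 counts. SS gave 14, 15, 50 and 39, and PM 7, 21, 53 and 40. Within these muscles the animals lay several-fold apart. Over the 9 muscles, mean levels were 2.16 CPM in animal 1, 3.39 in animal 2, 6.18 in animal 3 and 5.49 in animal 4. The muscles of a single animal also lay far apart. They spread over 0.536 to 3.74, 0.291 to 8.27, 0.766 to 10.9 and 1.61 to 11.1 CPM in animals 1 to 4. The joint test of the 9 muscles gave FDR = 0.561, where 8.94% of loci passed. The test of the animal term gave FDR = 0.0174 (edgeR), where 17% of loci passed. The animal term passed only with the wider filter (FDR = 0.00894, where 11.7% of loci passed). The lowest muscle mean of locus 2 was 1.98 ± 1.24 CPM in ST and its highest 5.44 ± 3.25 CPM in SS.

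**Figure D4:**
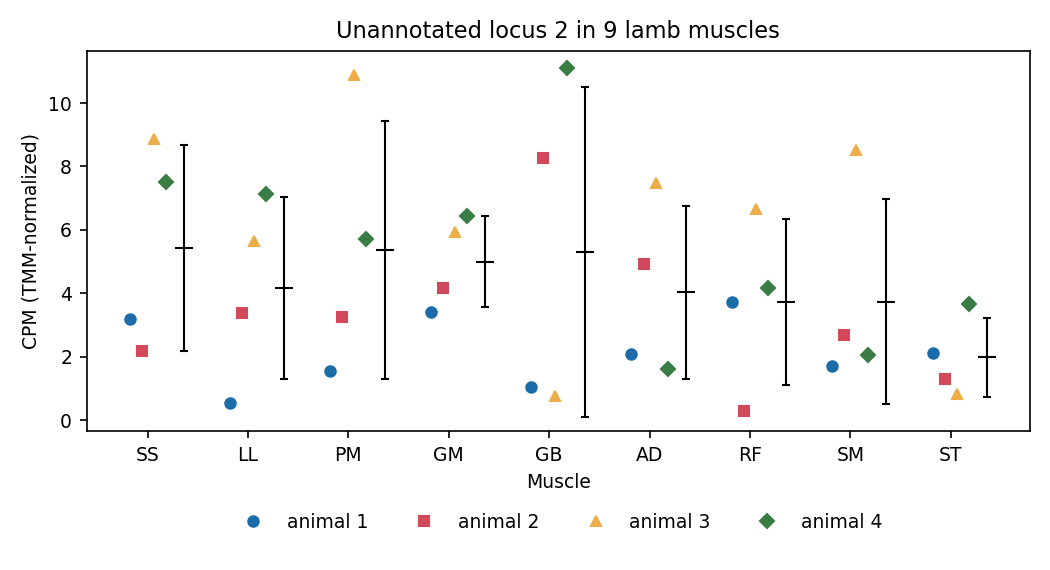
Unannotated locus 2 in CPM (y axis) in the 9 muscles (x axis); symbols are animals and bars give the mean ± SD of 4 animals. Animals of 1 muscle spread over most of the range, and the muscle means (1.98 to 5.44 CPM) lie within that spread.

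The 10 loci below the wider filter had 58 counts in all. Locus 1 (ENSOARG00000016271) had 15 counts, of which 5 were in SS, at 1 or 2 in each SS sample. Locus 16 (69 bases) had 14, of which 5 were in GB, 3 in ST, 3 in GM and none in SS, LL or PM. Locus 3 had 11 counts and none in SS. It shares its span with locus 4, which had no count. Loci 8, 12, 13, 17 and 18 had 4, 3, 3, 7 and 1 counts. In animals 1 to 4, SS exceeded the mean of the other muscles at locus 1 by 0.60, 0.61, 0.53 and 0.36 log2 CPM, and the pooled ratio of the other muscles to SS was 0.242 (95% interval 0.0753 to 0.902). Neither filterByExpr nor the wider filter kept these 10 loci for testing. In the fit with no filter, which is not relied on, SS against the other muscles at locus 1 had FDR = 0.238 (edgeR).

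Outside the window, the 5 loci whose log2 CPM followed HOXC10 most closely over the 36 samples had Pearson correlations of 0.75 to 0.80. They were ENSOARG00000004100 with ENSOARG00000004143 as 1 locus on chromosome 24 (0.80), ENSOARG00000018886 on chromosome 7 (0.79), ENSOARG00000009826 on chromosome 1 (0.78), ENSOARG00000011731 on chromosome 18 (0.76) and ENSOARG00000018803 on chromosome X (0.75). Each had its lowest mean in SS. Over the 32 samples without SS the correlations fell to 0.30 to 0.54, and 0 of the 5 stayed among the 5 closest. In the order given above, their ranks among the tested loci were then 76, 45, 243, 915 and 25. The correlations were thus lower without the SS samples. The 5 loci were picked with these 32 samples included, so the correlations left cannot show that a likeness remains. The samples also share animals and depth. Within the window, the correlation with HOXC10 over the 32 samples was 0.13 for locus 10, -0.01 for locus 7 and -0.16 for locus 5.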

How the data were processed

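RNA-Seq counts per locus were deposited by the authors for 36 samples. Per the labels and the study's methods, the authors aligned reads of 100 bases to Oar_v3.1 with TopHat2 2.0.13, assembled loci with Cufflinks 2.2.1 and counted reads with HTSeq; whether strand was used is not given in the sources used here. Samples were grouped by muscle and animal from the labels. Deposited counts were used unchanged, with coordinates written from 1. Each file repeats 394 entries, which were counted once, leaving 31136 loci.

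All loci were fitted in edgeR 4.0.16 (R 4.3.3): filterByExpr by muscle (12461 loci), TMM, and a model of muscle and animal over 36 samples, tested by quasi-likelihood (glmQLFit, glmQLFTest) with Benjamini-Hochberg adjustment. Calls needed FDR of at most 0.01 and, outside joint tests, an absolute log2FC above 1. CPM on the log2 scale used a prior count of 2. The procedure was tested on simulated data with 200 of 12461 loci changed by 2 on the log2 scale. It recovered 197 in the SS contrast and 188 in the joint test of 9 muscles, with 0 false calls. The changed loci excluded those of few counts, all loci were given 1 common spread, and only filterByExpr was used. These numbers therefore do not bear on the low loci tested under the wider filter. Single loci were also tested by exact two-sided permutation of muscles within animals (smallest p 1.5e-04 for SS).

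The loci, lists and tests were chosen with earlier results of these data known. All loci of the window were to be named, together with the 5 loci outside it most like HOXC10. Other HOX, cofactor, limb identity and cell type lists had been set, but no table used here pairs symbols with Ensembl identifiers, so of these only HOXD8 and TNNT1, located by their coordinates, were examined. Alternatives were the likelihood ratio test, no animal term, DESeq2 1.42.0, other scalings, filters and each animal left out. Additions made after seeing the data were the wider filter, the permutation tests, the likeness without SS, and robust estimation of the prior spread. Robust estimation was tried as a replacement for the planned fit once results were known, and the planned fit was kept. The 36 samples come from 4 animals, so the animal term pairs them by design. Samples of the same muscle differed by 5.12 to 34.7 times the variance of counting alone.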

Additional observations from a re-analysis of the deposited data

Results flagged for a closer look

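A sample stood far from the other 3 animals of its muscle in 8 of the 68 groups examined, by the ratio of its gap to the range of the group. Chance alone gives about 1 in 20, and several of these groups differ by a single count.

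HOXC10 in AD was 2.09 CPM in animal 4, against 3.28 to 3.41 CPM in the other 3 animals. Locus 2 in SM was 8.53 CPM in animal 3, against 1.7 to 2.69. Locus 5 in SM was 1.7 CPM in animal 1, against 0.991 to 1.11. Locus 7 in AD was 0.262 CPM in animal 1, against 1.27 to 1.45. At 4 loci and muscles a single count in 1 animal stood against 0 in the others. These were locus 6 in ST (animal 3, 0.165 CPM), locus 7 in SS (animal 4, 0.193 CPM), locus 15 in LL (animal 2, 0.178 CPM) and locus 15 in PM (animal 2, 0.155 CPM).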

How the results depend on the processing

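With filterByExpr, the numbers of window loci called were 1 in the joint test of 9 muscles, 0 in that of 8, 1 for SS, 0 for loin against pelvic limb, 8 in the 36 pairs and 0 in the 28 pairs without SS. All of these calls involve HOXC10 and SS, a difference known when the window was chosen, so they are given as a description only. Without the replicate block (the animal term) they were again 1, 0, 1, 0, 8 and 0, and robust estimation gave the same numbers. In the 36 pairs, DESeq2 gave 7, fits of only the 8 samples compared gave 6, and leaving out 1 animal gave 8 to 10. No filter gave 6, 2, 3, 1, 25 and 7, in a fit that leaves no locus its own spread and is not relied on. At least 10 counts in every sample removed HOXC10 and gave 0 calls in the joint test, for SS and in the pairs. The wider filter gave 3, 1, 3, 0, 16 and 2, the calls of HOXC10 against SS included. Leaving out 1 animal gave 1 to 2 calls in the joint test of 9 muscles, 0 to 1 in that of 8 and 0 to 1 in the 28 pairs, the higher values without animal 3, where locus 5 passed the filter and was called (FDR = 0.00441 over the 8 muscles, edgeR).

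With the wider filter, the likelihood ratio test raised the calls to 6 in the joint test of 9 muscles, 2 in that of 8, 1 for loin against pelvic limb and 4 in the 28 pairs. DESeq2 called 1 for SS. The 28 pairs had 1 call without the replicate block, with DESeq2, with RLE size factors and with library sizes without the 4 short loci, and 3 with robust estimation. Leaving out 1 animal gave 1 to 3 calls in the joint test of 9 muscles, 1 to 2 for SS, and 0 to 1 in that of 8 muscles and in the 28 pairs. The cause of these changes was not tested. Of the 5 loci most like HOXC10, 0 remained with muscle means or without SS, and 3 to 4 with 1 animal left out. No result changed direction. Counts at loci other than 2 and 9 were at most 18 in any sample.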
